A study of Mus musculus with 12 samples.

Results

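The coat of the lipid droplet was followed through 9 genes chosen by name: the perilipins Plin1, Plin2, Plin3, Plin4 and Plin5, the CIDE genes Cidea and Cidec, the galectin gene Lgals12 and the seipin gene Bscl2. All 9 were found among the 54532 genes of the count table, and all 9 were among the 16393 genes with enough reads to be tested. RNA came from lysates of whole tibialis anterior, a muscle at the front of the lower leg, collected 5 days after glycerol had been injected to injure it. The control group held 6 wild type libraries, and the knockout group held 6 libraries in which the nuclear receptor gene Pparg had been removed conditionally from fibro-adipogenic progenitors (FAPs), the muscle-resident cells that give rise to fat. All 12 carry the strain name 129svlmJ, entered in the labels under cell line. The sources used here do not give the Cre driver, the age of the animals or whether the controls carry a floxed allele. The labels do not state that the 6 libraries of a group stem from separate animals, so p-values cover the spread between these samples, which may be technical.

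A lipid droplet is a store of neutral fat wrapped in a single layer of phospholipid, and proteins bound to that layer decide how the fat is laid down, merged and broken down. Perilipins shield the fat from lipases, CIDE proteins pass fat from smaller droplets into larger ones, and seipin sits in the endoplasmic reticulum where droplets bud. Plin1, Cidec and Lgals12 are known chiefly from fat cells, Plin2 and Plin3 from nearly every cell type, and Plin5 from tissues that burn fat, muscle among them. Several of these genes are known targets of PPARG, the protein that Pparg encodes.

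In the knockout libraries Plin1, Cidec and Lgals12, known chiefly from fat cells, stood lower. Plin2 and Plin3, known from nearly every cell type, stood near the control level, as did Cidea, known from brown fat. Lgals12 fell 3.53-fold and passed the test over all genes, and Cidec and Plin1 stood 4.24-fold and 2.97-fold lower without passing it. For Plin2, Plin3 and Cidea, knockout means were 97.0%, 94.1% and 99.5% of the control means in library-scaled counts (CPM). Bscl2 and Plin4 lay between, at 71.6% and 54.3%, with 5 and 4 of 6 knockouts below all controls, and neither passed the test. Plin5 was at 97.3% with a wide spread in each group. Relative to Plin1 in the same library, the levels of Plin2, Plin3, Cidea and Bscl2 were higher in 6 of 6 knockout libraries than in any control. Since Plin1 itself was lower in every knockout, a gene at its control level would tend to do the same. The share of all tested genes with such a ratio was not computed. In edgeR's quasi-likelihood test with Benjamini-Hochberg adjustment, 1 of 9 members was called at 0.05 and it was lower, against a background of 0.799% of all tested genes called, 0.75% lower and 0.0488% higher. Before adjustment 4 of 9 members had a p under 0.05, each lower, against 9.47% of all tested genes in either direction and 5.68% lower. These 4 were Plin1, Cidec, Lgals12 and Bscl2. Groups did not overlap for 3 of 9 members, against 1.43% of tested genes, of which 1.27% had every knockout below and 0.159% every knockout above the controls. The 9 fold changes were all negative, with a median of -0.48 on the log2 scale against -0.00 for all tested genes, of which 50.5% were negative.

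The promoters of Plin1 and Cidec, in which the groups did not overlap, are shown beside those of Plin2 and Plin3, in which they did. The genes were thus picked by their result, and the comparison tests nothing. The sequences are those of RefSeq on GRCm38.p6 and run from 250 bases before to 50 bases after an annotated start, 5′ to 3′ on the strand of the gene. Of the 9 members, 7 have entries in the table. Lgals12, the only member called and also without overlap between groups, has none, nor has Cidea. Capitals mark letters matched on either strand by the C/EBP motif TTGCNNAA, the TATA box TATAAA, the CCAAT box CCAAT, the GC box GGGCGG, the E-box CACGTG, or the direct repeat bound by PPAR receptors, 2 copies of AGGTCA with 1 base of any kind between, for which up to 2 mismatches were allowed.
Plin1, chr7:79732727-79733026, minus strand: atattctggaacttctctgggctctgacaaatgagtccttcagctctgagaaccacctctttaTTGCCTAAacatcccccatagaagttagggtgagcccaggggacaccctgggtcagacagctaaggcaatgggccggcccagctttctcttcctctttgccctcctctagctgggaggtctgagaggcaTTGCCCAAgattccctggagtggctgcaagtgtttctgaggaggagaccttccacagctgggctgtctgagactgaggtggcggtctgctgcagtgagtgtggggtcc
Cidec, downstream start, chr6:113434715-113435014, minus strand: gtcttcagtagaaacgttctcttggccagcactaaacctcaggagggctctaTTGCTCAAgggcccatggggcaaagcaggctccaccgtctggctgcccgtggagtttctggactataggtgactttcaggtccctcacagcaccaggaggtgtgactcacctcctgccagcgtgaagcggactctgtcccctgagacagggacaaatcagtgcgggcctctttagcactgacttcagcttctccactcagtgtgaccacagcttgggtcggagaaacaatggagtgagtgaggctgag
Plin2, chr4:86670010-86670309, minus strand: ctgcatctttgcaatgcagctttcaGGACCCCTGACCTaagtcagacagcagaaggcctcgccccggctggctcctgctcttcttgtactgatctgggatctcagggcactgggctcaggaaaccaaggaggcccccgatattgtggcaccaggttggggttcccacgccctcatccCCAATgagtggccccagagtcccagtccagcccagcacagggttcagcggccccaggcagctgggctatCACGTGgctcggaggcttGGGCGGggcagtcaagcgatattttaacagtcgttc
Plin3, chr17:56290462-56290761, minus strand: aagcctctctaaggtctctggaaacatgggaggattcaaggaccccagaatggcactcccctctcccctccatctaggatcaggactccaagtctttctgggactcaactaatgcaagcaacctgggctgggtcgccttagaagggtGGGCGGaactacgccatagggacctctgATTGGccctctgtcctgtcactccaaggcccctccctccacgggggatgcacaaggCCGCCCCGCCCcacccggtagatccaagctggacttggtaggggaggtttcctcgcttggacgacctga

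The Plin1 window held 2 C/EBP matches, 187 and 58 bases before the start, and the Cidec window held 1, 198 bases before it. The window at the upstream start of Cidec (chr6:113435711-113436010), which is not printed, held no match to any of the 6 motifs. That start is the annotated start of the gene in the count table, at base 113435760. The windows of Plin4, Plin5 and Bscl2, which are not printed, held no C/EBP match. Log2 fold changes of these genes were -0.88, -0.05 and -0.48. Over all 32851 promoters of this length, 10.8% held a C/EBP match. The Plin2 window held none of these, but held the PPAR direct repeat 225 bases before the start with 2 mismatches, a match found in 3.86% of promoters, and a CCAAT box, a GC box and an E-box. The Plin3 window held 3 GC boxes, the last 2 of which overlap by 1 base, and a CCAAT box, against 35.7% of promoters with a GC box and 37.4% with a CCAAT box. The Plin3 window lies inside the gene, whose annotated start in the count table is at base 56292873. E-boxes were found in 7.15% of promoters and TATA boxes in 13.6%. A match describes letters in this window and is no evidence of binding.

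Library totals ranged from 15716056 to 29790720 counts, and mitochondrial protein genes took 2.66% to 10.8% of them. Control replicates 2 and 6 and knockout replicate 6 had the 3 lowest mitochondrial shares. Their summed CPM of 6 mature fibre markers, at 18756, 18340 and 15571, stood below the other 9 libraries (31852 to 50933). At 18 autosomal loci with separate high and low levels, some libraries of a group shared their states. Control replicates 2 and 3 shared 88.9% of these states, controls 4 and 5 shared 100%, knockouts 1 and 2 shared 72.2%, knockouts 3 and 4 shared 100% and knockouts 5 and 6 shared 94.4%. These 5 pairs, joined as closest partners, and the 2 remaining controls made up 7 sets. The sets are not sharply bounded, since control 1 shared 77.8% with each of controls 4 and 5, and knockout 2 shared 72.2% with knockout 5 as well as with knockout 1, a tie that the pairing settled in favour of knockout 1. The labels do not say whether such libraries come from the same animal. Pparg itself, in the length-scaled unit FPKM, ranged from 15.04 through a median of 18.9 to 22.5 in controls and from 5.23 through 7.80 to 14.5 in knockouts, so no knockout reached the lowest control. Its log2 fold change was -1.12 (SE 0.21, adjusted p = 0.0299, edgeR quasi-likelihood), and the call held in 4 of 12 fits with a library left out, which left out knockout replicate 1, 2 or 5 or control replicate 3.

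In control muscle Plin2 had the highest level per length and Cidea the lowest. Mean control FPKM were 74.1 ± 11.9 for Plin2, 54.7 ± 9.87 for Plin1, 52.9 ± 22.01 for Cidec, 19.7 ± 3.10 for Plin4 and 18.8 ± 0.84 for Plin3 (SD, n = 6). Bscl2 followed at 15.1 ± 2.33, Lgals12 at 12.7 ± 1.499, Plin5 at 1.86 ± 1.16 and Cidea at 1.49 ± 0.20 FPKM. Neighbours in this order overlapped in range except at the steps from Cidec to Plin4 and from Lgals12 to Plin5, where every library of the higher gene exceeded every library of the next. In knockout muscle the order was Plin2, Plin1, Plin3, Cidec, Bscl2, Plin4, Lgals12, Plin5 and Cidea, and the ranges of neighbours overlapped except between Plin2 and Plin1.

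**Figure D1:**
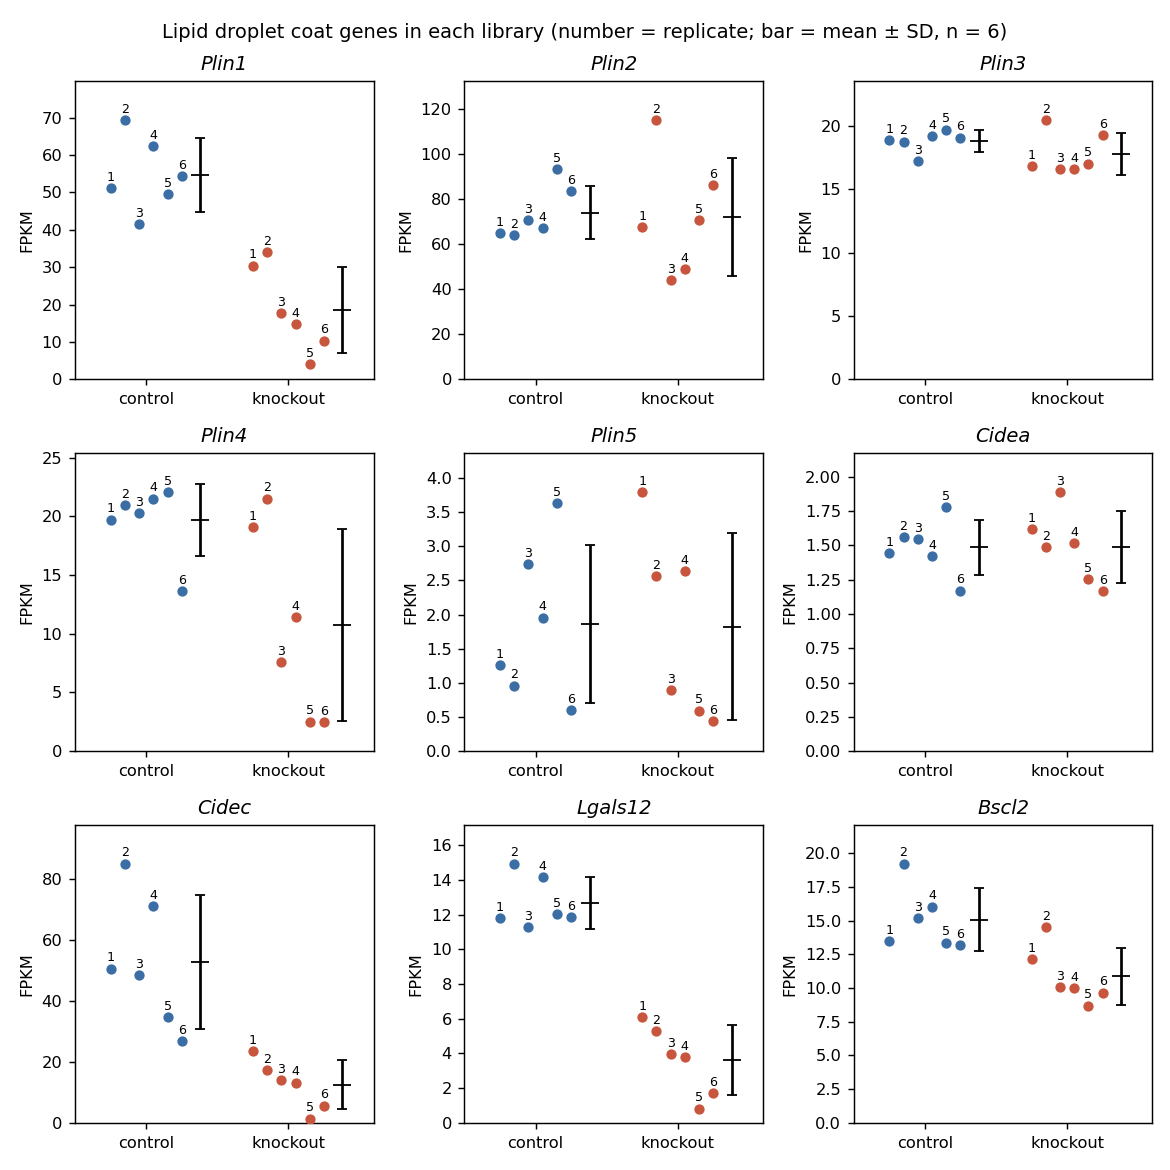
FPKM of each of the 9 genes (vertical axes, linear from 0) in 6 control and 6 knockout libraries; each point is a library labelled with its replicate number, and the bars give the mean ± SD. The knockout points of Plin1, Cidec and Lgals12 lie below all control points, whereas those of Plin2, Plin3, Plin5 and Cidea overlap the controls.

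Plin1 encodes the main coat protein of fat cell droplets, which holds lipases off the stored fat until hormones call for its release. The gene (ENSMUSG00000030546, chromosome 7, 79720218 to 79732903, minus strand, GRCm38) ranged in controls from 41.5 through a median of 52.7 to 69.4 FPKM and in knockouts from 4.10 through 16.2 to 34.0 FPKM. All 6 knockouts lay below all controls, a separation that 1.27% of all tested genes showed in this direction. The knockout libraries were themselves spread over a wide range. Replicates 1 and 2 stood at 30.4 and 34.0 FPKM, replicates 3 and 4 at 17.7 and 14.8, and replicates 5 and 6 at 4.10 and 10.3. Control replicates 2 and 3, which also shared most locus states, were the highest and the lowest control, at 69.4 and 41.5 FPKM. The log2 fold change was -1.57 (SE 0.39, 95% interval -2.42 to -0.72, adjusted p = 0.103, edgeR quasi-likelihood). Over the 24 alternatives the adjusted p of Plin1 ran from 0.0161 to 0.478, and it passed in 2 of them, DESeq2 and limma-voom.

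Plin4, a perilipin of fat cells and muscle that coats newly formed droplets, was at the control level in some knockout libraries and far below it in others. The gene (ENSMUSG00000002831, chromosome 17, 56100591 to 56109803, minus strand) ranged from 13.6 through 20.6 to 22.1 FPKM in controls and from 2.44 through 9.51 to 21.5 FPKM in knockouts. Knockout replicates 1 and 2, at 19.1 and 21.5 FPKM, lay within the control range, replicates 3 and 4 were at 7.61 and 11.4, and replicates 5 and 6 at 2.50 and 2.44. The log2 fold change of -0.88 had a 95% interval from -1.91 to 0.14 and an adjusted p of 0.627 (edgeR quasi-likelihood). Among controls, replicate 6 stood apart at 13.6 FPKM, with the other 5 at 19.7 or above.

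The Plin4 gene encodes a run of near copies of a 99-base unit, which codes for 33 residues. This matters for counting, since 28.5% of its longest transcript (5756 bases, GENCODE M21) lies in 50-base words that occur more than once within it, between bases 768 and 2902. A pair of neighbouring units is shown with capitals at the 26 bases of the second that differ from the first.
Plin4 unit at transcript bases 1239 to 1337: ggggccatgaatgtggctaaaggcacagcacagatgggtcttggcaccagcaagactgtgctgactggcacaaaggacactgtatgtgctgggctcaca
Plin4 unit at transcript bases 1338 to 1436: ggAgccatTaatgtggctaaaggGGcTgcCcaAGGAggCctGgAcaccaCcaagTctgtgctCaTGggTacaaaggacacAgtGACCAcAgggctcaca
None of these words of Plin4 occurred exactly in an annotated transcript of another gene. Inexact matches, reverse complements and the rest of the genome were not searched. In the other members at most 4.89% of the words occurred elsewhere, for Plin2. The sources used here do not say how reads with several positions were counted.

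Plin5 encodes the perilipin of oxidative tissues, which tethers droplets to mitochondria. Its gene (ENSMUSG00000011305, chromosome 17, 56111601 to 56117596, minus strand) lies 1797 bases from Plin4 on the same strand. Levels were low, at 25 to 176 reads in controls and 21 to 185 in knockouts. They ranged from 0.604 through 1.61 to 3.64 FPKM in controls and from 0.441 through 1.73 to 3.80 FPKM in knockouts, and the groups overlapped over most of that range. The log2 fold change of -0.05 had a 95% interval from -1.25 to 1.14 (adjusted p = 0.996, edgeR quasi-likelihood). That interval spans 0.421-fold to 2.20-fold, so falls and rises within it are not excluded. The 3 libraries with the lowest mature fibre markers were among the 5 lowest for Plin5, with control replicate 6 at 0.604, control 2 at 0.958 and knockout 6 at 0.441 FPKM. The part of fibre content in the level of Plin5 was not tested.

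Plin2 coats the droplets of most cells that are not adipocytes, macrophages and muscle fibres included, and was the most abundant coat transcript per length in 10 of 12 libraries. Its levels (ENSMUSG00000028494, chromosome 4, 86648386 to 86670060, minus strand) ran from 64.0 through 69.1 to 93.4 FPKM in controls and from 44.3 through 69.4 to 115 FPKM in knockouts. The knockouts lay on each side of the control range, with replicates 3 and 4 below it at 44.3 and 48.8 and replicate 2 above it. The log2 fold change was -0.04 (SE 0.20, 95% interval -0.48 to 0.39, adjusted p = 0.991, edgeR quasi-likelihood), an interval that spans 0.717-fold to 1.31-fold. Plin3, the ubiquitous perilipin that moves from the cytosol to young droplets, was the steadiest member. It stood at 17.2, 19.0 and 19.7 FPKM (lowest, median and highest) in controls and at 16.6, 16.9 and 20.5 FPKM in knockouts. Knockout replicates 1, 3, 4 and 5 lay just below the lowest control, and the log2 fold change was -0.09 (95% interval -0.23 to 0.05, adjusted p = 0.805, edgeR quasi-likelihood). The lower end of that interval is 0.853-fold, and it takes the 12 libraries as independent. Its gene (ENSMUSG00000024197, chromosome 17, 56277476 to 56292873, minus strand) lies 159879 bases from Plin5.

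The mix of perilipin transcripts differed between the libraries. Plin1 made up 26.3% to 39.9% of the summed perilipin FPKM in controls, with a median of 32.2%, and 4.31% to 22.05% in knockouts, with a median of 16.6%. Plin2 made up 36.8% to 49.6% in controls and 49.2% to 74.5% in knockouts, where its share was largest in replicates 5 and 6. The sum itself ranged from 153 to 188 FPKM in controls and from 87.0 to 194 FPKM in knockouts, so that knockout replicate 2 held more perilipin transcript than any control and the other 5 held less than every control. These shares add to 100%, so a lower Plin1 raises the others by construction.

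**Figure D2:**
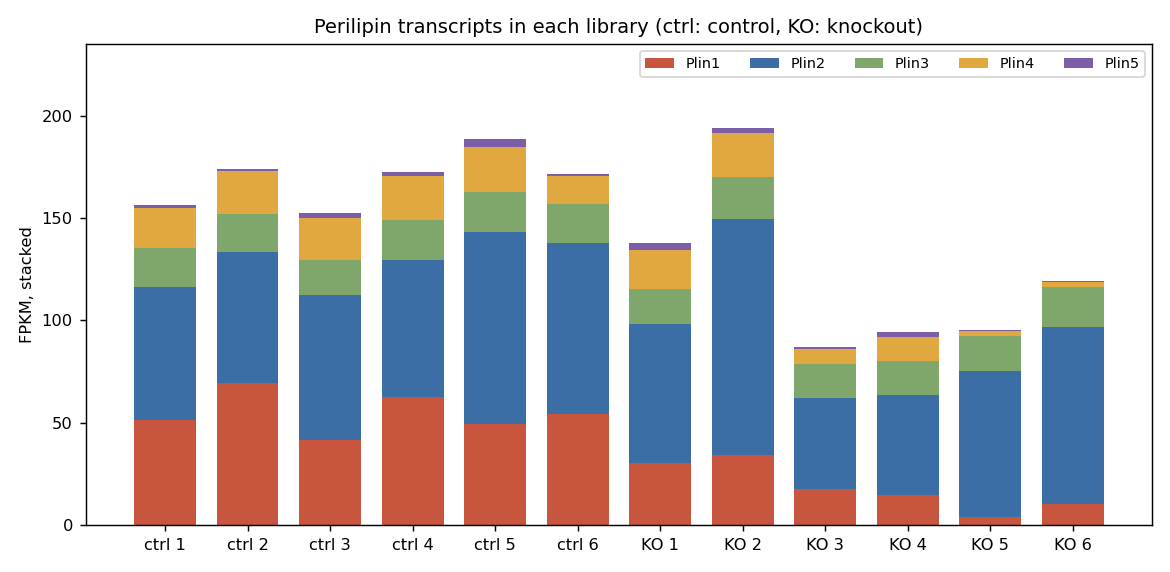
FPKM of the 5 perilipin genes stacked for each of the 12 libraries (vertical axis, linear from 0; ctrl is control and KO is knockout). The Plin1 segment is between 41.5 and 69.4 FPKM in controls and between 4.10 and 34.0 in knockouts, while the Plin3 segment stays between 16.6 and 20.5 throughout.

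Cidec, known from fat cells as the protein that merges droplets into a single large one, had the largest difference of the 9 genes. The gene (ENSMUSG00000030278, chromosome 6, 113424634 to 113435760, minus strand) ranged from 26.8 through 49.6 to 85.2 FPKM in controls and from 1.40 through 13.6 to 23.6 FPKM in knockouts. No knockout reached the lowest control, but the gap was narrow, with knockout replicate 1 at 23.6 and control replicate 6 at 26.8 FPKM. Knockout replicate 5 had only 48 Cidec reads, against 985 to 3480 in controls. Cidec had a log2 fold change of -2.08 (SE 0.50, 95% interval -3.17 to -0.996, adjusted p = 0.0882, edgeR quasi-likelihood). Its adjusted p ran from 0.0111 to 0.530 over the 24 alternatives and passed with DESeq2 and limma-voom. Only 10 tested genes had a lower log2 fold change.

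Cidea, the CIDE protein of brown fat, had a low level, at 26 to 67 reads per library. The gene (ENSMUSG00000024526, chromosome 18, 67343564 to 67367794, plus strand) stood at 1.17, 1.49 and 1.78 FPKM (lowest, median and highest) in controls and at 1.17, 1.501 and 1.89 FPKM in knockouts, and the groups overlapped throughout. Its log2 fold change was -0.00 (95% interval -0.37 to 0.36, adjusted p = 0.999, edgeR quasi-likelihood), with a sign that changed under RLE and upper-quartile scaling and 11 other alternatives. Of 6 markers of brown and beige fat, Ucp1 and Elovl3 had too few reads to be tested, and the other 4 did not pass.

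Lgals12 encodes galectin-12, a sugar-binding protein of fat cell droplets that acts on the hormonal signal for lipolysis, and was the only member past the threshold. The gene (ENSMUSG00000024972, chromosome 19, 7596660 to 7607193, minus strand) stood at 11.3, 11.9 and 14.9 FPKM (lowest, median and highest) in controls and at 0.817, 3.88 and 6.09 FPKM in knockouts. The highest knockout, replicate 1, was well below the lowest control. The log2 fold change was -1.82 (SE 0.35, 95% interval -2.59 to -1.05, adjusted p = 0.0332, edgeR quasi-likelihood). With a library left out, the call held in 3 of 12 fits, those without knockout replicate 1, 2 or 5, and was lost without any single control replicate or without knockout replicate 3, 4 or 6 (adjusted p between 0.0207 and 0.0949 over the 12). Over all 24 alternatives it held in 11, with adjusted p from 2.9e-05 to 0.333.

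Bscl2 encodes seipin, which organises droplet formation in the endoplasmic reticulum and is needed for fat cells to mature. The gene (ENSMUSG00000071657, chromosome 19, 8837467 to 8848683, plus strand) ranged from 13.2 through 14.3 to 19.2 FPKM in controls and from 8.69 through 10.1 to 14.5 FPKM in knockouts. Of the knockouts, 5 lay below all controls and replicate 2 lay within their range. Bscl2 had a log2 fold change of -0.48 (SE 0.13, 95% interval -0.76 to -0.21, adjusted p = 0.119, edgeR quasi-likelihood), with adjusted p from 0.0131 to 0.563 over the alternatives. Without knockout replicate 2 the adjusted p was 0.0261, and it passed with DESeq2, limma-voom and the replicate block as well. Bscl2 shares 6.75% of its exonic bases with Gng3 on the opposite strand and 4.05% with the gene model AC129217.1 on the same strand, so its count is less certain. Plin4 shares 0.294% with Hdgfl2 on the opposite strand, and the other 7 share no exonic base with another gene.

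**Figure D3:**
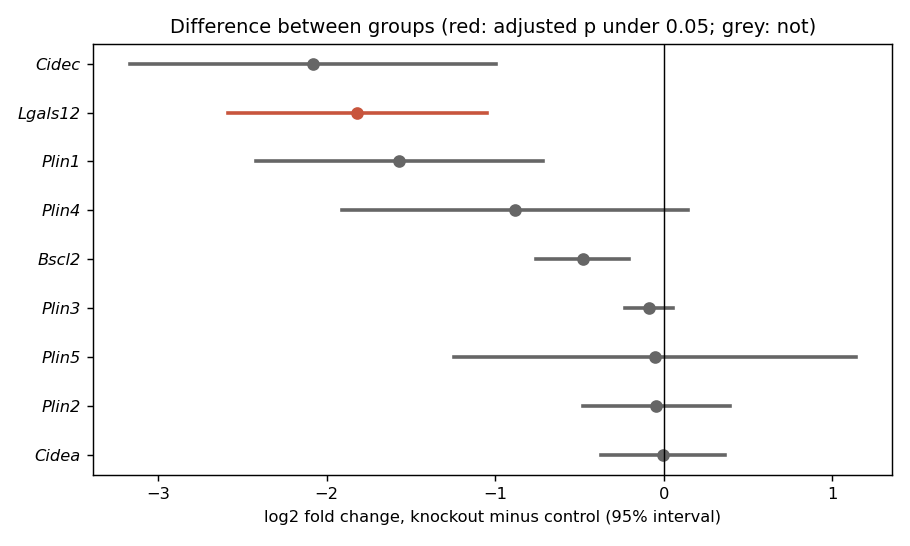
Log2 fold change, knockout minus control, of the 9 genes (points) with 95% intervals (lines), from the fit across all genes. Lgals12 is the only gene in red, past an adjusted p of 0.05, and the widest interval is that of Plin5, from -1.25 to 1.14.

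Whether the members differed by unequal amounts was tested on the log2 ratio of each to Plin1 within a library, which does not depend on how libraries are scaled. The ratio to Plin1 was higher in knockouts by 1.75 for Plin2, 1.76 for Plin3, 1.84 for Cidea and 1.36 for Bscl2 on the log2 scale, and 6 of 6 knockouts lay above all controls for each of these 4 genes. For each of these the exact permutation p was 0.00216, the smallest that 924 assignments can give, and the adjusted p over the 8 ratios was 0.00433. All 8 ratios share Plin1, which was lower in every knockout than in any control (adjusted p = 0.103, edgeR quasi-likelihood). A member near its control level therefore has a higher ratio by construction. The 4 results concern only the difference from Plin1 and are not separate lines of evidence. These tests were chosen with earlier results of these data known. Their adjustment covers 8 ratios and not all tested genes, so their adjusted p cannot be set beside that of Plin1. Plin5 had a difference of 1.65 with 4 of 6 knockouts above all controls (exact permutation p = 0.0173, adjusted p = 0.0277), and leaving out any of 5 libraries (controls 1, 2 and 4, knockouts 1 and 5) took that call away. The ratio of Plin4 differed by 0.52 (exact permutation adjusted p = 0.113), that of Cidec by -0.56 (adjusted p = 0.104) and that of Lgals12 by -0.23 (adjusted p = 0.104). A difference from Plin1 was not detected for these 3 genes, which does not show that they moved alike. Each passed in 1 fit with a library left out: Plin4 at 0.74 without knockout replicate 6 (exact permutation adjusted p = 0.0173), Cidec at -0.74 without control replicate 6 (0.0450) and Lgals12 at -0.30 without knockout replicate 4 (0.0139). With the libraries averaged over the 7 sets that share locus states, the smallest p is 0.0286, and the adjusted p of the first 4 ratios became 0.0571.

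**Figure D4:**
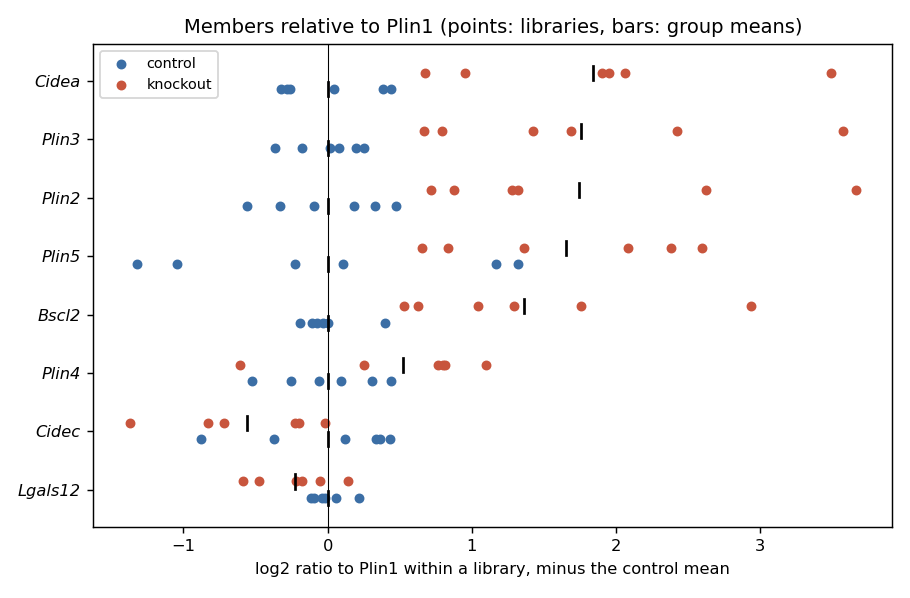
Log2 ratio of each of the other 8 genes to Plin1 within a library, shown as the difference from the control mean of that gene (horizontal axis); points are libraries and bars are group means. For Cidea, Plin3, Plin2 and Bscl2 the knockout points lie to the right of every control, and for Plin4, Cidec and Lgals12 they overlap.

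Within the groups Plin1, Lgals12, Cidec and Plin4 correlated closely, and Plin2 and Plin3 formed a separate pair. Deviations of log2 CPM from the group mean were correlated over the 12 libraries as a description, and these libraries share depth and makeup. Plin1 had Pearson r of 0.966 with Lgals12, 0.913 with Cidec, 0.864 with Plin4 and 0.764 with Bscl2. With Plin5 and Cidea it had r of 0.525 and 0.434. The SD of Plin1 was 18.1% of the mean CPM in controls and 62.3% in knockouts, so its r values weigh the knockouts more. Mean Plin1 FPKM in the knockout library sets was 32.2, 16.2 and 7.21. Plin2 and Plin3 had r of 0.807 with each other, and Plin2 had 0.102 with Plin1. Plin4 and Plin5, neighbours on the chromosome, had r of 0.823.

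**Figure D5:**
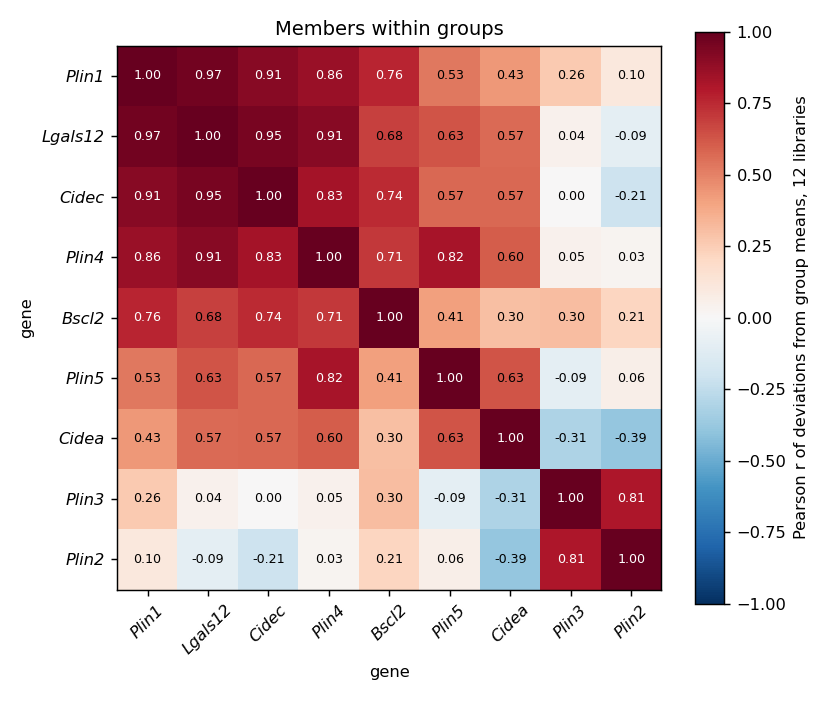
Pearson r between the 9 genes for deviations of log2 CPM from the mean of each group, over 12 libraries (colour scale from -1 to 1, values rounded in the cells). Plin1, Lgals12, Cidec and Plin4 form the upper left block at 0.83 or above, and Plin2 and Plin3 share 0.81.

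By the same measure over 12 libraries, the protein-coding genes most like each member were listed. For Plin1 they were Dgat2, an enzyme of triglyceride synthesis (r = 0.976), Reep6 (0.973) and Hcar1, a lactate receptor of fat cells (0.969). Lgals12 lay closest to Acvr1c (0.993), an activin receptor, Reep6 (0.984) and Pck1 (0.979), and Cidec to Mrap (0.983), Pck1 (0.982) and Arxes1 (0.970). Plin2 lay closest to Psap (0.955), which encodes the precursor of lysosomal activator proteins, Syk (0.951), a kinase of immune cells, and Lipa (0.951), the lysosomal acid lipase. Plin3 followed Por (0.963), Fabp5 (0.953) and Camk1d (0.927). The closest to Plin4 were Cth (0.973), Ppp1r1a (0.971) and Prodh (0.971), and to Plin5 Pfkfb1 (0.978), Aldh1a1 (0.967) and Bpgm (0.966). Cidea was nearest to Clpb (0.940), Spg7 (0.919) and Tbc1d17 (0.882), and Bscl2 to Slc25a10 (0.936), Scp2 (0.933) and Slc25a39 (0.926). Of these, Slc25a10 and Scp2 fell in the knockout (log2 fold change -0.86 and -0.58, adjusted p = 0.0199 and 0.0332, edgeR quasi-likelihood).

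Other genes that act at the droplet were read from lists beside the members. All counts of calls stand against the 0.799% of tested genes called, and counts before adjustment against 9.47%. Of 11 tested genes of droplet formation, 2 fell and 0 rose, 6 had an unadjusted p under 0.05, and the median log2 fold change was -0.21: Dgat1, which makes triglyceride, went from 71.9 ± 7.95 to 40.0 ± 8.80 CPM, and Agpat2, which makes phosphatidic acid, from 73.0 ± 16 to 30.2 ± 11.3 CPM (SD, n = 6 each). Of 8 genes of lipolysis at the droplet, 2 fell and 0 rose, 6 had an unadjusted p under 0.05, and the median was -0.97. These were Mgll, the monoglyceride lipase, from 85.8 to 45.5 CPM, and Abhd5, the lipase activator held by PLIN1, from 45.5 to 28.2 CPM (log2 fold change -0.91 and -0.69, adjusted p = 0.0231 and 0.0300, edgeR quasi-likelihood). Of 24 other droplet-associated genes, 2 fell and 0 rose, 5 had an unadjusted p under 0.05, and the median was -0.05: Cav1, a caveolar protein also made by endothelium, from 659 to 401 CPM, and Tusc5, known from fat cells, from 30.2 to 9.79 CPM. Of 5 genes that degrade perilipins, 0 passed (0 at an unadjusted p under 0.05, edgeR quasi-likelihood), and Hspa8 and Lamp2 had log2 fold changes of -0.12 and -0.11.

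Markers of the cells that could supply these transcripts moved to different degrees, and their part in the results was not tested. All 9 adipocyte markers, of which Lipe and Tusc5 also stand in the droplet lists and Pck1 was named above, had negative log2 fold changes and an unadjusted p under 0.05, 3 passed the test, and their summed level ranged from 2248 to 3991 CPM in controls and from 399 to 1578 CPM in knockouts. No adipocyte marker was at 0 in every library. The 6 macrophage markers summed to 5394 to 6604 CPM in controls and 3986 to 6504 CPM in knockouts, and the 6 markers of lipid-laden macrophages to 2143 to 3515 and 1559 to 2804 CPM, with 0 of either passing and 0 and 1 at an unadjusted p under 0.05. That 1 was Fabp5, lower in knockouts (mean 422 to 280 CPM). FAP markers summed to 3988 to 5834 CPM in controls and 3593 to 6241 CPM in knockouts, endothelial markers to 250 to 334 and 189 to 333 CPM, and 0 of 6 passed in each list, with 2 and 0 at an unadjusted p under 0.05. Those 2 were Dcn (mean 510 to 365 CPM) and Lum (238 to 166 CPM), and all 6 log2 fold changes were negative in each of these lists. Most of the FAP sum was Col1a1 (3937 to 3884 CPM). Lyz2 and Fabp4 likewise made up most of the macrophage and adipocyte sums, so the sums say little of the other markers. Mature fibre markers summed to 18340 to 40393 CPM in controls and 15571 to 50933 CPM in knockouts, and slow fibre markers to 851 to 1235 and 892 to 1511 CPM, again with 0 of 6 past the threshold and 0 of 6 at an unadjusted p under 0.05 in each. In bulk RNA, fewer cells of a type and less RNA per cell cannot be told apart.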

How the data were processed

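RNA-seq of 12 whole muscle lysates, 6 control and 6 knockout, was deposited as gene counts and FPKM. The authors trimmed reads with fastp, aligned them with HISAT2 2.0.5 to GRCm38 and counted them with featureCounts, per the submitters' processing notes. Whether counting used strand is not stated in those notes. Deposited counts were whole numbers per gene. Deposited FPKM are the authors' values, whose library sizes came out at 1.00 to 1.02 times the TMM-scaled totals. The 9 members, the gene lists and the tests were chosen with earlier results of these data known.

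Counts were filtered (filterByExpr, minimum count 10, minimum total 15), scaled by TMM and fitted with edgeR 4.0.16 (robust quasi-likelihood, R 4.3.3). P-values were Benjamini-Hochberg adjusted over all 16393 tested genes, with a threshold of 0.05. CPM are TMM-scaled. Ratios to Plin1 used log2 CPM with a prior count of 2 and a two-sided exact permutation test, adjusted over 8 ratios. Genes named beside members were the 3 protein-coding genes of highest Pearson r, together with list genes past the threshold and, for a list with none, the 2 of smallest p. Alternatives used DESeq2 1.42.0, limma 3.58.1, other scalings and filters, FPKM with pseudocounts of 1 and 0.1, a replicate block and each library left out.

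Totals of 15716056 to 29790720 counts set the counting error, and the spread between libraries adds to it. No 2 libraries agreed within sampling noise (chi-square per degree of freedom 12.9 to 159 over 30 pairs). On simulated counts for 16177 genes, the fit recovered 94 of 100 genes changed 2-fold and 62 of 100 changed 1.5-fold, with 9 false calls among 165. The changed genes had at least 100 reads in an average library, which Plin5 and Cidea did not reach. The simulated libraries were independent, without sets that share locus states. These rates therefore do not carry over to the members, among which Plin1 (2.97-fold lower) and Cidec (4.24-fold lower) were not called.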

Additional observations from a re-analysis of the deposited data

Results flagged for a closer look

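In 2 of 20 groups of 6 libraries examined, the lowest library lay apart from the other 5 by more than Dixon's 95% critical value, and chance gives about 1 such group in 20. Plin4 in control replicate 6 stood at 79.2 CPM, against 116 to 129 CPM in the other controls, a gap that took 0.736 of the range. Plin3 in control replicate 3 stood at 66.02 CPM, against 72.0 to 75.5 CPM in the others, with a gap of 0.626 of the range.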

How the results depend on the processing

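The number of genes called, 131 with edgeR, was 373 with DESeq2, 393 with limma-voom, 6 to 214 with a library left out, 9 without the 3 libraries of lowest mitochondrial share and 0 on counts summed over the library sets, where 1127 genes had an unadjusted p under 0.05 (edgeR). These last 2 alternatives were chosen after seeing the data. The lowest counts followed from leaving out knockout replicate 3 (6 genes), knockout replicate 4 (9) or control replicate 4 (12), and 200 and 214 were called without knockout replicates 1 and 2. Leaving out control replicate 1, 2 or 3 gave 65, 24 or 72, and knockout replicate 5 or 6 gave 77 or 35.

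Same-numbered libraries had correlated deviations between -0.133 and 0.464, and 2 of 6 correlated best with their own number, so the labels share only a number. The replicate block called 236 genes, with Bscl2 at -0.49 (adjusted p = 0.0131) and Lgals12 at -1.999 (0.0674), and changed no other member's call.

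DESeq2 gave Plin1 -1.56, Cidec -2.07, Bscl2 -0.47 and Cidea 0.0085 on the log2 scale, and limma-voom -2.10, -2.72, -0.55 and 0.0036. The first 3 passed with each tool (adjusted p from 0.0111 to 0.0379). Without the filter, Lgals12 was -1.81 (adjusted p = 0.127), Pparg -1.12 (0.0979) and Cidea 0.0043. Cidea was 0.0061 with RLE and 0.012 with upper-quartile scaling. Without the 3 libraries, Lgals12 was -1.62 (0.211), Pparg -1.01 (0.234), Cidea 0.0081 and the Plin5 ratio 1.26 (exact permutation, 0.0741). Over library sets, Lgals12 was -1.77 (0.333), Pparg -1.13 (0.274), Cidea 0.047 and Plin5 0.032. The ratios were then 1.74 for Plin2, 1.75 for Plin3, 1.87 for Cidea, 1.40 for Bscl2 and 1.84 for Plin5 (exact permutation adjusted p = 0.0571 for the first 4 and 0.0914).

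With a library left out, log2 fold changes ran from -2.04 to -1.61 for Lgals12, -0.58 to -0.40 for Bscl2, -1.32 to -1.002 for Pparg, -0.23 to 0.064 for Plin2, -0.42 to 0.26 for Plin5 and -0.091 to 0.064 for Cidea. Ratios to Plin1 ran from 1.39 to 1.91 for Plin5, 0.40 to 0.74 for Plin4, -0.74 to -0.40 for Cidec and -0.30 to -0.16 for Lgals12. Plin3 and Plin4 fold changes kept direction and call in 24 of 24 alternatives. Fewer libraries or sets leave less power, and beyond that the cause of these shifts was not tested. Depth was lowest for Plin5 and Cidea among the members, and of the 9 Plin5 had the largest standard error (0.55).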
